A study of Homo sapiens with 12 samples.

Results

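The 10 genes described here, out of 58735 in the deposited table, were the core genes of this program, chosen by name: ATF4 itself, DDIT3, TRIB3, CHAC1, SESN2, DDIT4, ASNS, PHGDH, PSAT1 and PPP1R15A.

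The integrated stress response is the program through which human cells answer amino acid shortage, misfolded protein in the endoplasmic reticulum, double-stranded RNA, mitochondrial damage and heme shortage. Each signal switches on a kinase that phosphorylates the translation factor eIF2, which slows protein synthesis at large while favoring translation of the ATF4 mRNA, and the ATF4 protein then turns on genes for amino acid supply, redox balance and the decision between recovery and death. Since ATF4 is set largely by translation, the mRNA levels of its target genes are the usual readout of the program in RNA-Seq data.

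The genes were measured by RNA-Seq of poly(A) RNA from HEK293T, a transformed cell line of human embryonic kidney origin, in 4 groups of 3 libraries: DMSO, CEP, 4SU and CEP+4SU. CEP is the clickable electrophilic purine AHL-Pu-1, a probe that reacts with cysteines in proteins, and was given for 1 hr at 25 uM according to the series' design text, whereas the sample protocol writes 25 mM. 4SU (4-thiouridine), a photoreactive uridine analog that cells build into new RNA, was given for 16 hr at 100 uM. The same protocol, with ultraviolet crosslinking on ice between the 4SU and CEP steps and CEP added in serum-free medium, is attached to all 12 libraries, and the labels do not say whether the DMSO cells were irradiated. The question addressed was whether the conditions of the probe experiment alter the transcriptome. All cells were wild type for genotype and of a single line. The study describes its replicates as biologically independent, without saying how the cultures were separated, and p-values measure the spread between these libraries.

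The libraries held 16569114 to 24644734 counts, and 17729 genes, all 10 members among them, passed the filter on low counts. CEP replicate 2 and CEP+4SU replicate 2 stood apart from the rest with 22230 and 22627 genes carrying a count, against at least 24376 in the other 10 libraries. The markers listed for the HEK293 line were split. The neurofilament genes NEFL and NEFM lay between 25.0 and 40.9 FPKM in all libraries. PAX2, LHX1 and L1CAM, on the same list, ranged only from 0.202 to 1.46 FPKM. Of 4 melanocyte markers (the study also used a melanoma line), TYR was at 0 throughout, and the summed level of the list ran from 1.64 to 3.27 FPKM over all libraries, with 2.06 to 2.75 in DMSO and 1.64 to 2.75 in CEP+4SU. Of these, PMEL had group means of 1.64 to 2.24 FPKM, above those of PAX2, LHX1 and L1CAM in each group. On the melanocyte list DCT alone passed the test, rising in CEP+4SU (log2 fold change 1.23, adjusted p = 0.0455) to levels of 0.442 to 0.844 FPKM. In 4SU alone DCT also lay above DMSO without overlap (log2 fold change 0.90, adjusted p = 0.669). The leukocyte gene CD3E was also at 0, and no more than 5 counts fell on PTPRC or ALB in any library.

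None of the 10 genes passed the test in any comparison. In CEP against DMSO, 4SU against DMSO and CEP+4SU against DMSO, 0 of 10 passed an adjusted p of 0.05 in edgeR's quasi-likelihood test, beside 0.0564%, 0.00564% and 1.64% of all genes tested. At these backgrounds a set of 10 genes would hold few calls or none, so the width of each interval carries more information than the count. Across the 30 fold changes against DMSO, no upper limit of a 95% confidence interval reached 1 on the log2 scale, a 2-fold rise, and the highest was 0.89, for ASNS in CEP. On the lower side the limit went past -1 for CHAC1 in CEP+4SU, at -1.16. All comparisons with DMSO share the same 3 control libraries, and in such bulk RNA fewer cells carrying a transcript and less of it per cell cannot be told apart.

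Levels of the members relative to each other were read per length, in the FPKM deposited by the authors. ATF4 stood highest, with a mean of 292 ± 25.1 FPKM (SD, n = 12 libraries), at percentile 99.6 of the genes tested. The serine synthesis gene PSAT1 followed at 135 ± 6.41 FPKM and PHGDH, which encodes the first enzyme of the same route, at 39.1 ± 3.76 FPKM. SESN2 averaged 29.2 ± 2.57 FPKM. The stress-responsive regulators came next, PPP1R15A at 12.6 ± 1.69, TRIB3 at 10.7 ± 1.24, DDIT4 at 8.59 ± 1.26 and DDIT3 at 4.01 ± 0.680 FPKM. CHAC1 averaged 2.03 ± 0.615 FPKM and ASNS 0.711 ± 0.146 FPKM, which is 410-fold under ATF4. Ranges over the 12 libraries did not meet between ATF4 and PSAT1, PSAT1 and PHGDH, SESN2 and PPP1R15A, or DDIT4 and DDIT3. The other 5 neighboring pairs overlapped, so their order is not set beyond the spread. The order was the same when counts per kilobase replaced FPKM. They use the deposited counts and the same gene lengths, so this is no separate check on the order.

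**Figure D1:**
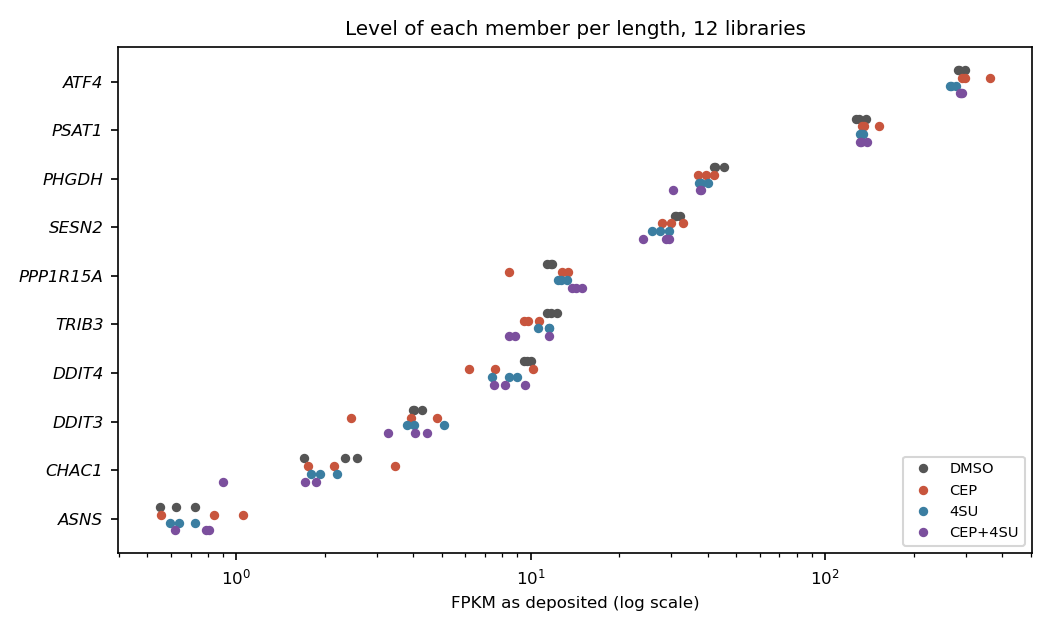
Level of each of the 10 genes in the 12 libraries, as deposited FPKM on a log axis, with 1 point per library colored by group. ATF4 lies between 266 and 364 FPKM and ASNS between 0.550 and 1.05 FPKM, whereas the points of neighbors such as PPP1R15A and TRIB3 intermingle.

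Part of the spacing rests on gene models. The length used for PHGDH, 9217 bases, is the union of all its annotated exons, so its FPKM is low for the counts it holds. ASNS, asparagine synthetase, lies at chr7:97852118-97872542 on the minus strand (GRCh38, GENCODE 29), and 1985 of its 4455 exonic bases (44.6%) also belong to AC079781.5, a transcript on the same strand. The shared bases touch 13 of the 14 exon blocks of ASNS, and AC079781.5 itself held only 4 to 22 counts per library.

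DDIT4 (chr10:72273920-72276036, plus strand) shares 847 of 2058 exonic bases (41.2%) with the antisense gene DDIT4-AS1, which had 0 counts in all 12 libraries. DDIT3 (chr12:57516588-57521737, minus strand) shares 518 of 1307 exonic bases (39.6%) with MARS, MBD6 and AC022506.1. The other 7 members share none. How the counting treated shared bases can be seen elsewhere in the table: all 228 genes whose exons lie wholly inside those of a same-strand host with at least 1000 counts in every library were at 0 throughout, as were all 154 such genes inside a host on the opposite strand, against 39.3% of all genes. The levels of ASNS, DDIT4 and DDIT3 are therefore uncertain. Their comparisons between groups use the same model in every library, but only the reads that were counted for each gene. For ASNS, with shared bases in 13 of 14 exon blocks, which exons its 47 to 100 counts came from was not tested. Its fold changes carry the same uncertainty. Whether reads from shared bases were dropped or given to the larger gene was not tested for these members.

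**Figure D2:**
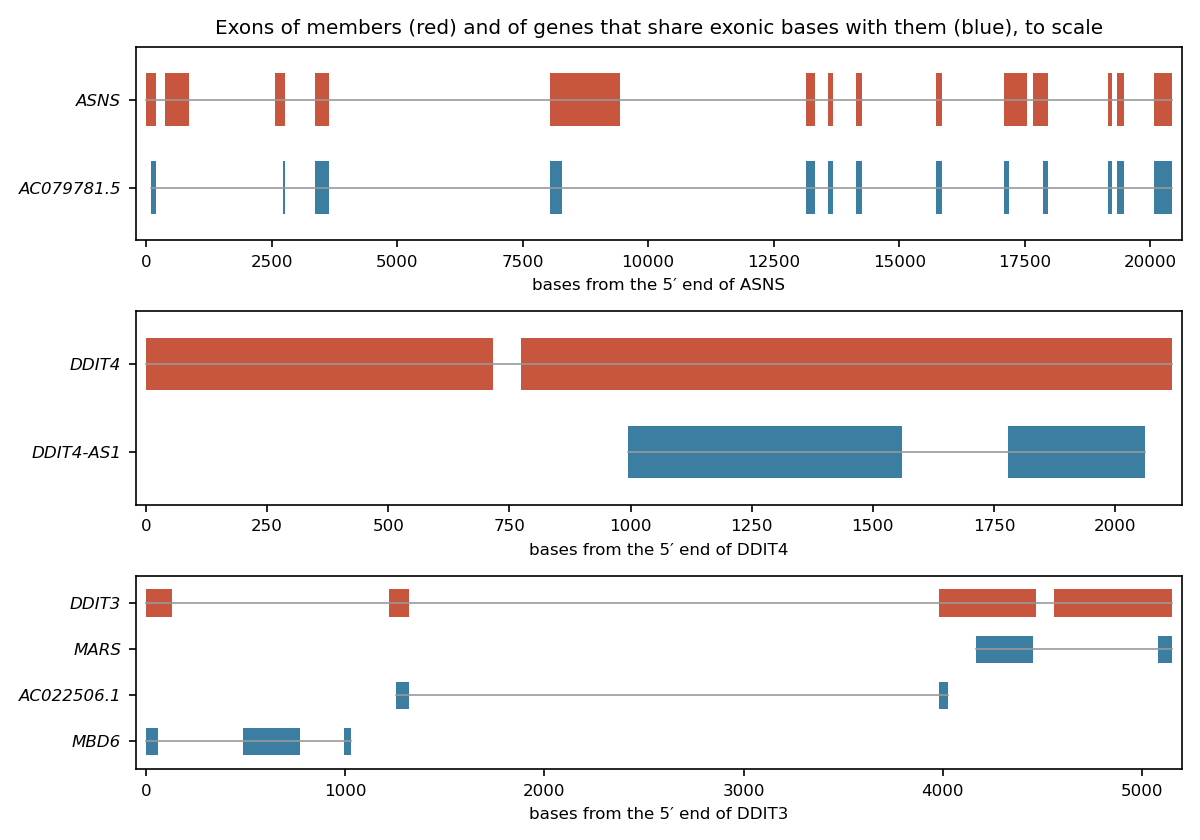
Exons of members (red) and of genes sharing exonic bases with them (blue), drawn to scale in bases from the member's own 5′ end. The shared stretches cover 44.6% of ASNS, 41.2% of DDIT4 and 39.6% of DDIT3 exonic bases.

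ATF4 works by binding CARE elements (CCAAT/enhancer binding protein-ATF response elements), whose core is TGATGNAA. RefSeq promoter windows on GRCh38.p14, 300 bases from 250 before to 50 after each start, were matched for all 10 genes and searched on both strands. The core was present in 2 of 10, ASNS and CHAC1, beside 4.46% of 27305 genes with a window and 3.62% of 35116 windows. These stretches are shown because they hold the ATF4 core itself, in capitals, at 68 and 209 bases before a start annotated by RefSeq: the first at chr7:97872439-97872506 (minus strand) and the second at chr15:40953232-40953299 (plus strand, where the core reads on the other strand). In the union of GENCODE 29 exons, which begins further upstream, both lie inside the first exon.
ASNS: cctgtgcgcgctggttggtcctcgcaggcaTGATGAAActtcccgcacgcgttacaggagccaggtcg
CHAC1: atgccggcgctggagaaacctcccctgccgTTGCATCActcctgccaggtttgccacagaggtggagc

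The ER stress element, CCAAT followed after 9 bases by CCACG, was found in the windows of 0 of 10 members, beside 0.0769% of all windows. A match is a run of letters and no match says only that the run is not in this window. Over the 315 tested genes with the CARE core, 0 were called in CEP, 0 in 4SU and 3 in CEP+4SU (1 higher and 2 lower, or 0.952% of them), beside 0.0564%, 0.00564% and 1.64% of all genes. Their median log2 fold changes were 0.06, -0.01 and 0.03, where those of all genes lay within 0.01 of 0. These medians are from the main fit, and whether they follow the GC content of the 315 genes was not tested.

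ATF4, the bZIP transcription factor at the head of the program, was measured with at least 11440 counts per library. Its normalized counts were 755, 717 and 725 CPM (counts scaled to a common library size) in DMSO, 760, 740 and 926 in CEP, 705, 674 and 669 in 4SU, and 740, 726 and 736 in CEP+4SU. CEP replicate 3 was the highest of the 12 libraries, the 4SU libraries all lay under the DMSO libraries, and the other groups overlapped DMSO. On the log2 scale its fold change was 0.14 in CEP (SE 0.0758, adjusted p = 0.316), -0.10 in 4SU (adjusted p = 0.837) and 0.00 in CEP+4SU, with a 95% interval of -0.16 to 0.16 for the last.

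DDIT3 encodes CHOP, the ATF4-induced factor that drives expression of death genes under lasting stress. It held 5.24, 5.27 and 5.68 CPM in DMSO, 5.22, 3.24 and 6.36 in CEP, 4.98, 6.66 and 5.27 in 4SU, and 5.32, 4.31 and 5.88 in CEP+4SU. The 2 lowest of the 12 libraries were CEP replicate 2 and CEP+4SU replicate 2, and every treated group overlapped DMSO. Its log2 fold changes were -0.12 in CEP, 0.06 in 4SU and -0.06 in CEP+4SU, and the widest interval, in CEP, ran from -0.58 to 0.34.

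TRIB3, a pseudokinase that ATF4 and CHOP induce and that acts back on ATF4, was the member with the lowest p in CEP. Its CPM were 42.4, 39.2 and 40.9 in DMSO, 37.1, 32.8 and 34.1 in CEP, 39.9, 36.6 and 39.8 in 4SU, and 39.9, 29.3 and 30.8 in CEP+4SU. All CEP libraries lay below all DMSO libraries, whereas in CEP+4SU replicate 1 lay within the DMSO range and the other two below it. TRIB3 was the only member without overlap in CEP, lower there, beside 23.7% of all genes without overlap (13.5% higher and 10.1% lower), and the only one with an unadjusted p under 0.05 there, beside 18.6%. The log2 fold change was -0.24 (SE 0.109, adjusted p = 0.256) in CEP, -0.07 in 4SU and -0.29 in CEP+4SU (adjusted p = 0.134). With each library's trend on GC content removed the values were -0.01 in CEP and -0.08 in CEP+4SU, and without CEP+4SU replicate 1 the latter was -0.46 (adjusted p = 0.0274, range over all alternatives 0.0274 to 0.71). The GC content of TRIB3, 61.6%, lies above the median of 49.9% over the genes tested.

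CHAC1, a target of ATF4 and CHOP, encodes an enzyme that degrades glutathione. It held few counts, 39 to 152 per library. Its CPM were 3.52, 5.32 and 4.89 in DMSO, 4.47, 3.65 and 7.21 in CEP, 3.97, 4.54 and 3.70 in 4SU, and 3.87, 1.87 and 3.57 in CEP+4SU. The highest and lowest libraries, CEP replicate 3 and CEP+4SU replicate 2, differed 3.86-fold, and each group overlapped DMSO. CHAC1 was the most variable member, with a coefficient of variation of 30.3% over the 12 libraries against a median of 21.2% for genes of like level. Its log2 fold change was 0.17 in CEP, -0.17 in 4SU and -0.56 in CEP+4SU, where the interval ran from -1.16 to 0.03 and the adjusted p was 0.254. With the GC trend removed the values were 0.43, -0.08 and -0.34.

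SESN2 and DDIT4 encode stress-induced inhibitors of the growth kinase mTORC1, the first a leucine sensor and the second known as REDD1. SESN2 stood at 108, 108 and 112 CPM in DMSO, 116, 97.4 and 104 in CEP, 102, 95.4 and 89.5 in 4SU, and 100.5, 83.9 and 103 in CEP+4SU. All libraries with 4SU lay below all DMSO libraries, and the CEP group overlapped DMSO. Fold changes on the log2 scale were -0.05 in CEP, -0.19 in 4SU (SE 0.0904, adjusted p = 0.762) and -0.19 in CEP+4SU (adjusted p = 0.228). With the GC trend removed they were 0.13 in CEP, -0.13 in 4SU and -0.03 in CEP+4SU, and the GC content of SESN2 is 59.5%.

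DDIT4 stood at 20.7, 20.1 and 19.8 CPM in DMSO, 15.8, 12.8 and 21.1 in CEP, 18.6, 15.2 and 17.4 in 4SU, and 19.8, 17.0 and 15.6 in CEP+4SU. The 4SU and CEP+4SU libraries lay below the DMSO libraries, by a narrow margin for CEP+4SU replicate 1, and CEP replicate 3 lay above them all. The log2 fold changes were -0.28 in CEP (adjusted p = 0.317), -0.24 in 4SU and -0.21 in CEP+4SU. Its GC content of 63.0% was the highest among the members, and with the GC trend removed the values became -0.02 in CEP, -0.15 in 4SU and 0.04 in CEP+4SU, so that the last turned direction.

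ASNS, PHGDH and PSAT1 are the biosynthetic arm, making asparagine and serine. ASNS, with 47 to 100 counts per library, held 2.46, 2.81 and 3.28 CPM in DMSO, 2.50, 3.77 and 4.74 in CEP, 2.86, 3.24 and 2.66 in 4SU, and 2.79, 3.64 and 3.57 in CEP+4SU. Every treated group overlapped DMSO, and the highest library was CEP replicate 3. In CEP its log2 fold change was 0.37 (interval -0.16 to 0.89, adjusted p = 0.426), beside 0.03 in 4SU and 0.23 in CEP+4SU.

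PSAT1 was the steadiest member. It held 302, 287 and 283 CPM in DMSO, 297, 301 and 338 in CEP, 288, 291 and 295 in 4SU, and 292, 307 and 291 in CEP+4SU, a coefficient of variation of 4.81% against a median of 7.56% for genes of like level. Only CEP replicate 3 and CEP+4SU replicate 2 lay above all DMSO libraries. The log2 fold changes were 0.10 in CEP, 0.00 in 4SU and 0.03 in CEP+4SU, and the 3 intervals together spanned -0.14 to 0.25.

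PHGDH came nearest to the threshold of all members. It held 420, 392 and 391 CPM in DMSO, 393, 344 and 368 in CEP, 370, 352 and 345 in 4SU, and 352, 282 and 350 in CEP+4SU. Each library with 4SU lay below every DMSO library, and CEP+4SU replicate 2 was the lowest of the 12. The log2 fold change was -0.12 in CEP, -0.17 in 4SU (adjusted p = 0.766) and -0.29 in CEP+4SU (SE 0.0833, interval -0.46 to -0.12, adjusted p = 0.0732). DESeq2 called it in CEP+4SU with an adjusted p of 0.0196. It passed in 5 of 24 alternatives, which spanned adjusted p from 0.013 to 0.335, the latter without CEP+4SU replicate 2, where the fold change was -0.19.

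PPP1R15A, also called GADD34, directs the phosphatase that removes the phosphate from eIF2 and so ends the response. It held 36.7, 36.6 and 35.7 CPM in DMSO, 40.1, 26.3 and 42.0 in CEP, 41.2, 39.3 and 38.5 in 4SU, and 44.4, 46.7 and 43.2 in CEP+4SU. The 4SU and CEP+4SU libraries all lay above the DMSO libraries, and CEP replicate 2 was the lowest of the 12, far under the other CEP libraries. It showed a log2 fold change of -0.01 in CEP (0.18 without CEP replicate 2), 0.13 in 4SU (adjusted p = 0.882) and 0.30 in CEP+4SU (SE 0.126, adjusted p = 0.176). Without CEP replicate 2 the last had an adjusted p of 0.0488, and over all alternatives it ranged up to 0.45.

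**Figure D3:**
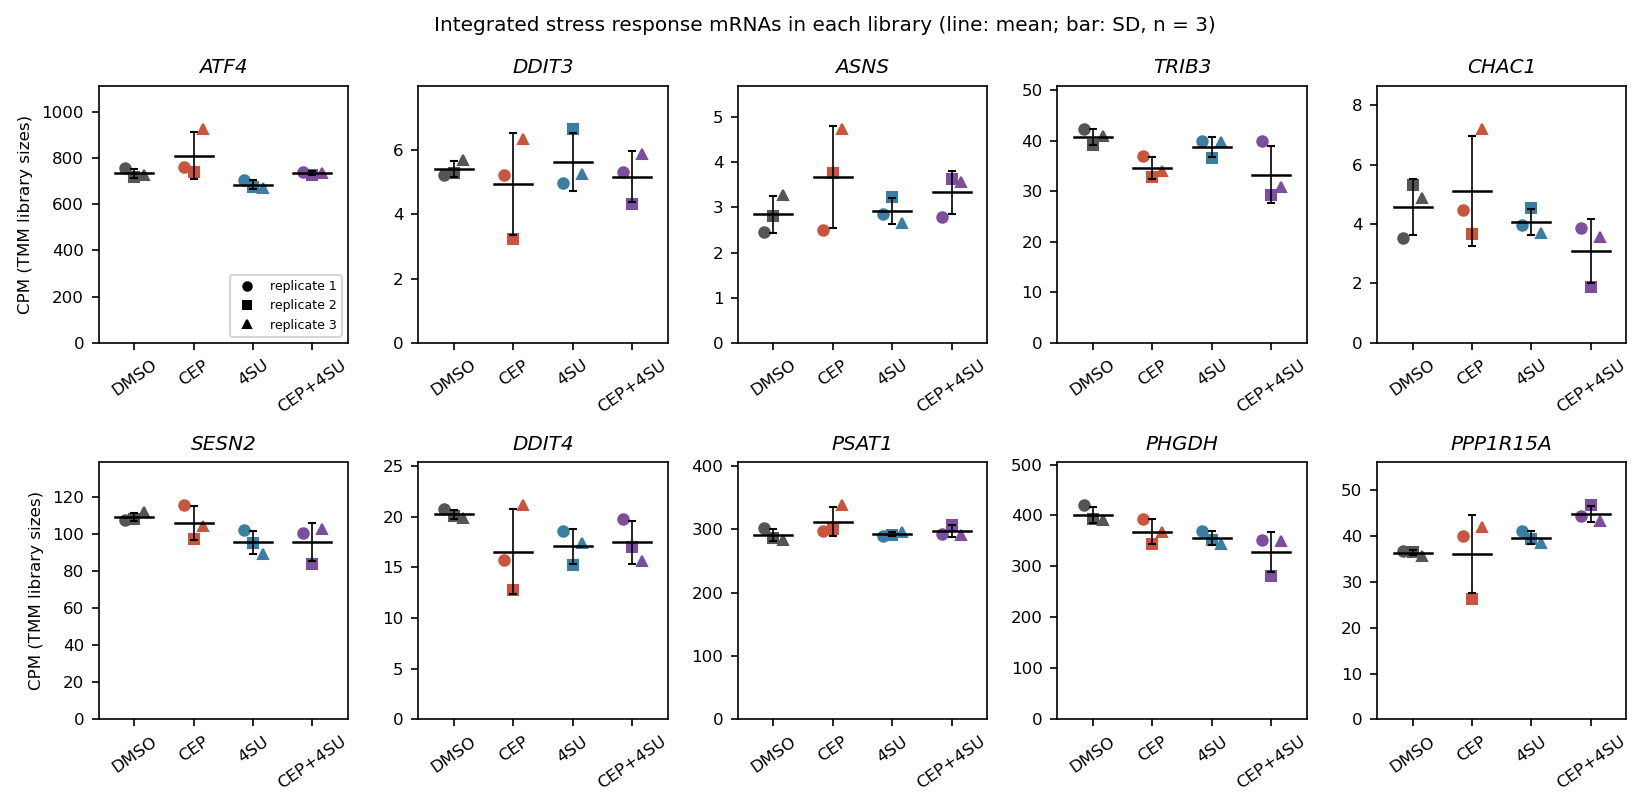
CPM of the 10 genes in each library, with markers by replicate number, lines for group means and bars for the SD (n = 3), each axis starting at 0. TRIB3 is lower in all CEP libraries than in DMSO, and CEP+4SU replicate 2 is the lowest library for TRIB3, CHAC1, SESN2 and PHGDH.

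Counted over the members, 5 of 10 showed no overlap between 4SU and DMSO (1 higher and 4 lower), beside 17.9% of all genes (7.58% higher and 10.3% lower), and 4 of 10 between CEP+4SU and DMSO (1 higher and 3 lower), beside 28.7% (14.1% higher and 14.6% lower). In 4SU only SESN2 had an unadjusted p under 0.05, beside 6.5% of all genes. In CEP+4SU TRIB3, SESN2, PHGDH and PPP1R15A did, or 4 of 10 beside 21.4%. Median log2 fold changes of the members were -0.03 in CEP, -0.09 in 4SU and -0.13 in CEP+4SU, where the medians over all genes tested were all within 0.01 of 0. All genes were not matched to the members in GC content, which ran from 44.1% to 63.0% beside a median of 49.9%. Whether these counts and medians follow GC content was not tested. Limma on the FPKM called 0 of 10 in each of these comparisons. With either 1 or 0.1 added to the FPKM it called 0.00564% of all genes in CEP and 0% in 4SU. In CEP+4SU it called 0.118% with 1 added and 0.135% with 0.1 added, so hardly any calls could fall on 10 genes. DESeq2 called 0 members in CEP, 0 in 4SU and 1 in CEP+4SU, beside 1.83%, 0.363% and 9.96% of all genes.

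**Figure D4:**
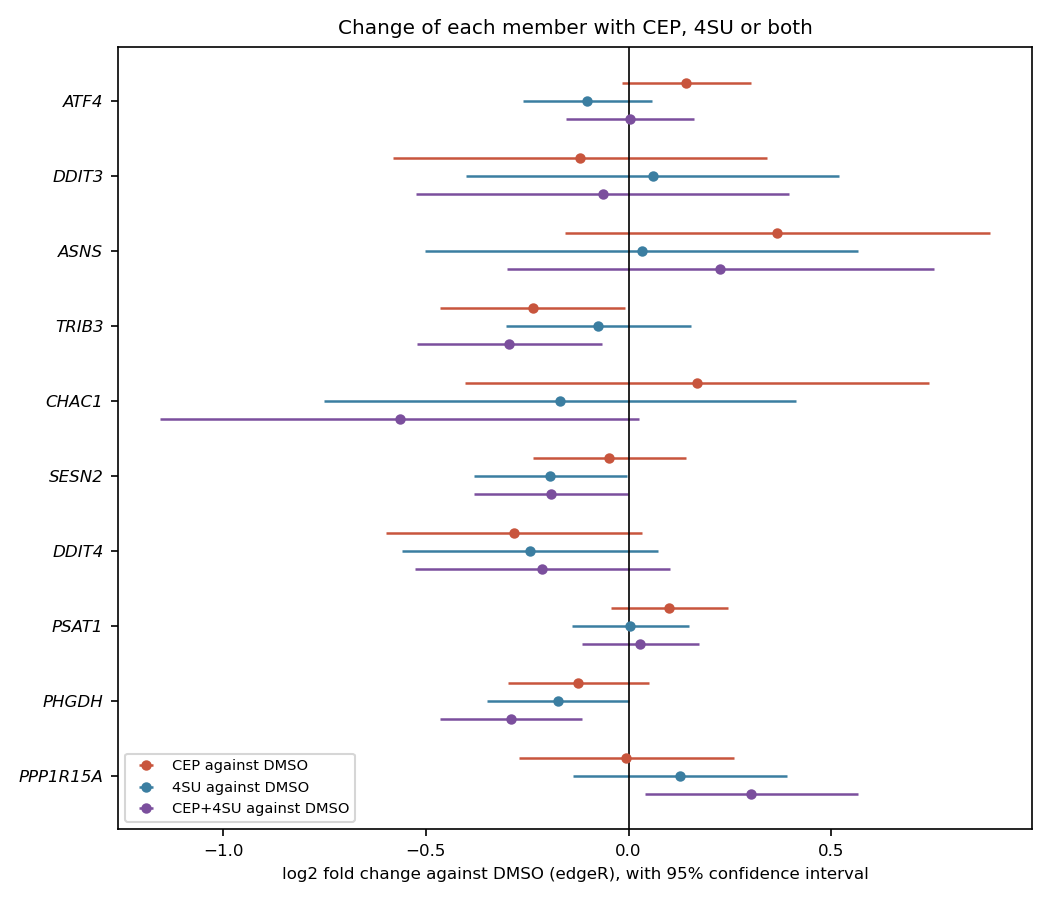
Log2 fold change of each gene against DMSO in CEP, 4SU and CEP+4SU from edgeR, with 95% confidence intervals. Most intervals cross 0, and none reaches 1 on the upper side. On the lower side that of CHAC1 in CEP+4SU extends to -1.16. The intervals of CHAC1 and ASNS are the widest.

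Averaged over the other compound, which uses all 12 libraries, 0 of 10 members were called for CEP, beside 0.276% of all genes, and 0 of 10 for 4SU, beside 0.558%. For CEP the lowest p was again that of TRIB3, at -0.23 (SE 0.0775, adjusted p = 0.0972), and ATF4 stood at 0.12 (adjusted p = 0.169). These were the only members with an unadjusted p under 0.05, or 2 of 10 beside 24.3%, and DESeq2 called TRIB3 with an adjusted p of 0.0431, within a range of 0.0273 to 0.841 over the alternatives. For 4SU 5 of 10 had an unadjusted p under 0.05, beside 12.6%: ATF4 at -0.12, CHAC1 at -0.45, SESN2 at -0.17, PHGDH at -0.17 and PPP1R15A at 0.22, with adjusted p from 0.207 to 0.357. For the interaction of CEP with 4SU 0 of 10 passed, beside 0% of all genes, and 0 had an unadjusted p under 0.05, beside 2.63%. Limma called 0 members in these 3 comparisons. Of all genes it called 0.107% for CEP, with 1 or 0.1 added to the FPKM, and 0% for the interaction. For 4SU it called 0.164% with 1 added and 0.147% with 0.1 added. The size of any joint departure from additivity was least certain for CHAC1, with an interval of -1.40 to 0.27.

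A few libraries held the extremes of many members, and whether the library or its treatment set them was not tested. CEP replicate 3 held the highest value of ATF4, ASNS, CHAC1, DDIT4 and PSAT1. CEP replicate 2 held the lowest of DDIT3, DDIT4 and PPP1R15A, and CEP+4SU replicate 2 the lowest of TRIB3, CHAC1, SESN2 and PHGDH. Across the 12 libraries, Pearson correlations of log2 CPM over the 45 pairs of members had a median of 0.28, from -0.69 for ASNS with TRIB3 to 0.88 for SESN2 with PHGDH. The closest to ATF4 among the members was PSAT1 (r = 0.83). Among 14902 genes considered, those most like ATF4 were B3GNT2 (r = 0.91), MDH1 (0.89), RPL23 (0.89), PPA1 (0.88) and MSMO1 (0.88). These are descriptions over 12 points that share libraries and treatments, with members differing in GC content from 44.1% in PSAT1 to 63.0% in DDIT4.

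The wider program was described with 6 lists holding 75 further genes, 74 of them tested. No list gene was called in CEP or in 4SU, and 19 and 7 of the 74 had an unadjusted p under 0.05, beside 18.6% and 6.5% of all genes. In CEP+4SU 2 were called, EIF2AK2 higher and CRELD2 lower, and 23 of 74 had an unadjusted p under 0.05, beside 21.4% of all genes. The share called, 2 of 74, was read against 1.64% of all genes.

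Among the 7 eIF2 kinases and their activators, EIF2AK2 rose in CEP+4SU. It encodes PKR, the kinase that senses double-stranded RNA. Its CPM were 95.2, 107.9 and 101.7 in DMSO, 104, 134 and 117.5 in CEP, 113.5, 127 and 128 in 4SU, and 117, 153 and 134 in CEP+4SU. Libraries with both compounds, and with 4SU alone, all lay above DMSO, with the highest in CEP+4SU replicate 2. EIF2AK2 showed a log2 fold change of 0.41 in CEP+4SU (SE 0.103, adjusted p = 0.0495), 0.22 in CEP (adjusted p = 0.259) and 0.27 in 4SU (adjusted p = 0.721). The call in CEP+4SU held in 10 of 24 alternatives (adjusted p from 0.00116 to 0.243). It was lost with upper-quartile scaling, with limma, with the GC trend removed, without both CEP-treated second replicates and in 9 of 12 fits that left out 1 library, all but those without CEP replicate 1, CEP replicate 2 or CEP+4SU replicate 1. EIF2AK1, the heme-regulated kinase, stood at 0.01 in CEP+4SU, GCN1, which activates the amino acid sensor GCN2, at -0.18, and OMA1, the mitochondrial protease, at 0.22, and none passed.

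CRELD2, an endoplasmic reticulum protein induced by misfolded protein, fell in CEP+4SU. It was the only one called of the 17 genes on the list for the IRE1 and ATF6 arms, the branches of the unfolded protein response that do not act through eIF2. Its CPM were 63.8, 55.2 and 62.0 in DMSO, 58.4, 54.4 and 48.6 in CEP, 52.2, 46.9 and 48.5 in 4SU, and 47.2, 39.3 and 46.3 in CEP+4SU. All 4SU and CEP+4SU libraries lay below all DMSO libraries. The log2 fold change was -0.45 in CEP+4SU (SE 0.0987, adjusted p = 0.0339), -0.17 in CEP (adjusted p = 0.36) and -0.29 in 4SU (adjusted p = 0.669). The call held in 13 of 24 alternatives (adjusted p from 0.00159 to 0.172). It was lost with limma, with the GC trend removed, without both CEP-treated second replicates and without any 1 of the DMSO libraries, 4SU replicate 2 or 3, or CEP+4SU replicate 2 or 3. DCT moved in the same comparison, and whether this bears on the calls of EIF2AK2 and CRELD2 was not tested. On the same list the chaperones CALR, HSPA5 and HSP90B1, at 287, 230 and 164 mean FPKM, had log2 fold changes of -0.05, 0.03 and 0.07 in CEP+4SU.

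In the other 4 lists no gene was called. Among 18 further amino acid targets, the transporters SLC1A5 and SLC7A5 stood at -0.33 each in CEP+4SU (adjusted p = 0.0557 and 0.109), and ALDH18A1, which makes a proline precursor, at -0.04. Among 12 genes of eIF2, its exchange factor eIF2B and the phosphatase, the subunits EIF2S3 and EIF2S2 stood at -0.05 and -0.03, and PPP1CC, a catalytic subunit of the phosphatase, at 0.19. The transcription factors of the 8-gene bZIP list were led in level by QRICH1, CEBPG and CEBPB, at -0.08, 0.10 and -0.39. Of 12 tested CHOP and other ATF4 targets, PMAIP1, which encodes the death factor NOXA, stood at 0.00, EIF4EBP1, a translation inhibitor, at -0.27, and XPOT, which exports tRNA, at 0.16. The medians of the 6 lists lay between -0.11 and 0.08 in CEP+4SU.

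**Figure D5:**
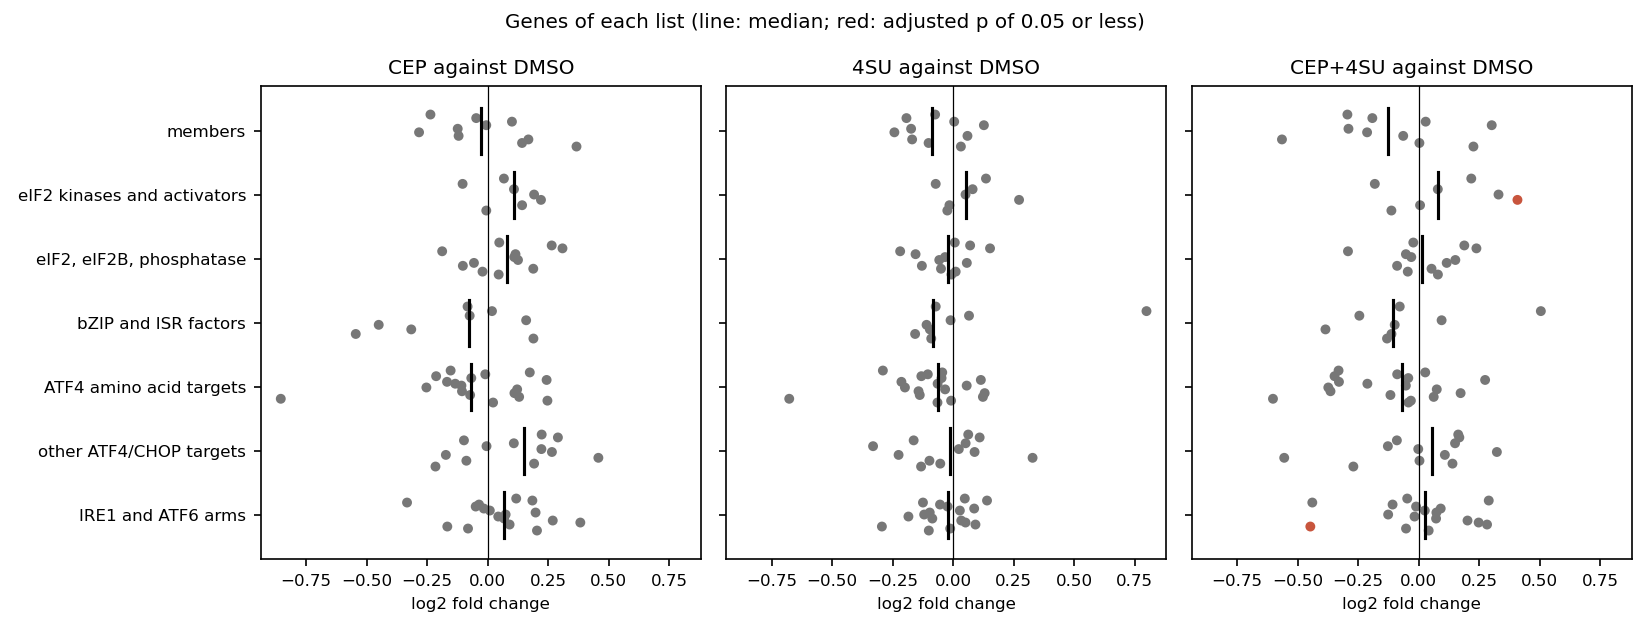
Log2 fold change against DMSO of each gene in the 6 lists and of the 10 members, in 3 panels by comparison, with a line at each median and red points at an adjusted p of 0.05 or less. The red points are EIF2AK2 and CRELD2, both in CEP+4SU.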

How the data were processed

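Poly(A) RNA of 12 HEK293T libraries was sequenced, and the authors deposited raw counts per gene and FPKM for 58735 genes, made per the labels with HISAT2 2.0.5, featureCounts 1.5.0-p3 and GRCh38. The authors' means of FPKM per group were not used. How strand and overlapping exons were handled is not given in the sources used here. Gene lengths in the deposited table equal GENCODE 29 for all 10 members. Groups were taken from the sample labels. The members and lists were chosen with earlier results of these data known.

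Counts were filtered with filterByExpr (minimum count 10, minimum total 15), scaled by TMM and fitted with edgeR 4.0.16 (R 4.3.3) in 1 quasi-likelihood model of all 12 libraries, giving 6 comparisons. P-values were two-sided and adjusted over all 17729 genes by Benjamini-Hochberg, with a threshold of 0.05. CPM used TMM library sizes. Total counts of 16569114 to 24644734 and the number of libraries set the precision. Same-group libraries differed beyond counting noise, so none was counted as a duplicate.

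All members were named with values. Of the lists, called genes and the 3 others of highest mean FPKM were named, and DCT was named after its value was seen. Alternatives were DESeq2 1.42.0, limma 3.58.1 on log2 FPKM with pseudocounts of 1 and 0.1, other scalings, filters and thresholds, each library left out, a replicate block and, chosen after seeing the data, removal of each library's lowess trend of log2 CPM on transcript GC content (span 0.3) and omission of both CEP-treated second replicates.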

Additional observations from a re-analysis of the deposited data

How the results depend on the processing

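Over 37 single-gene results of the members, 836 of 881 alternatives kept the direction and the side of the threshold. Another 12 brought a gene past it and 33 turned the direction of a value that had not passed. No member had passed in the main fit, and the alternatives reuse the same libraries, so this tally is no independent check. The number of members called, 0 throughout, became 1 in CEP+4SU against DMSO with DESeq2, without the low-count filter and at an adjusted p of 0.1, and 0 to 2 with a library left out (2 without CEP replicate 2 and 2 without CEP+4SU replicate 1). In that order these fits called 9.96%, 3.46%, 6.74%, 3.52% and 4.42% of all genes. For CEP averaged over 4SU it became 1 with DESeq2 and at 0.1, and 0 to 1 with a library left out (1 without CEP+4SU replicate 1). There 14.6%, 9.01% and 6.16% of all genes were called. For 4SU averaged over CEP it became 1, PHGDH, with the GC trend removed, beside 3.49% of all genes. The cause was not tested.

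Deviations of same-numbered libraries were at most weakly correlated (r from -0.05 to 0.14, above 0.1 in 1 of 18 pairs). Their median r was 0.011, beside -0.008 for different numbers, yet 8 of 12 libraries were closest to their own number. The number was not taken as pairing in the main fit, and a weak pairing remains possible. With the replicate block 2 members, PHGDH and TRIB3, were called in CEP+4SU and 1 in CEP averaged over 4SU, and list genes called became 5 of 74 in CEP, 13 in CEP+4SU, 14 for CEP averaged and 3 for 4SU averaged, where the block called 4.4%, 9.4%, 12.8% and 1.9% of all genes.

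List genes called (0 in CEP, 0 in 4SU, 2 in CEP+4SU, 0 in each averaged comparison and 0 for the interaction) became, in CEP, 1 with DESeq2, 3 unfiltered and 0 to 7 with a library left out (7 without CEP replicate 1). In 4SU they became 1 unfiltered and 3 with its own libraries alone. In CEP+4SU they became 9 with DESeq2, 10 unfiltered, 0 with limma at either pseudocount, 4 with its own libraries, 8 at 0.1, 0 at 0.01, 1 with the GC trend removed, 0 without both CEP-treated second replicates and 0 to 7 with a library left out (7 without CEP+4SU replicate 1, and 0 without each of 7 others). For CEP averaged they became 9 with DESeq2, 8 unfiltered, 8 at 0.1 and 0 to 14 with a library left out (14 without CEP replicate 1 and 4 without CEP+4SU replicate 1). For 4SU averaged they became 2 with DESeq2, 3 unfiltered, 2 at 0.1, 7 with the GC trend removed and 0 to 1 with a library left out (1 without CEP replicate 3). The interaction gave 1 unfiltered. Over all genes DESeq2 called 1.83% in CEP, 9.96% in CEP+4SU, 14.6% for CEP averaged and 2.62% for 4SU averaged. In the same order the unfiltered fit called 1.86%, 3.46%, 4.06% and 0.873%, and the threshold of 0.1 called 0.062%, 6.74%, 9.01% and 1.46%. The fit on its own libraries called 0.557% in 4SU and 3.36% in CEP+4SU, and removal of the GC trend called 3.49% for 4SU averaged. Without CEP replicate 1, 6.61% of all genes were called in CEP and 11.8% for CEP averaged. Without CEP+4SU replicate 1, 4.42% were called in CEP+4SU and 6.16% for CEP averaged. Without CEP replicate 3, 0.546% were called for 4SU averaged. The unfiltered fit called 0.115% in 4SU and 0.0421% for the interaction.

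With the GC trend removed, log2 fold changes that had not passed turned to 0.13 for SESN2, -0.039 for PSAT1 and 0.13 for PPP1R15A in CEP, -0.0057 for ASNS, 0.0038 for TRIB3 and -0.040 for PSAT1 in 4SU, and 0.044 for DDIT4 and -0.10 for PSAT1 in CEP+4SU. Without both CEP-treated second replicates they turned to 0.10 for DDIT3, 0.010 for SESN2 and 0.18 for PPP1R15A in CEP, and 0.055 for DDIT3 in CEP+4SU. ATF4 in CEP+4SU was -0.0025 unfiltered and -3.3e-05 with at least 10 counts in every library. With a library left out, values in CEP ran from -0.35 to 0.10 for DDIT3, -0.17 to 0.36 for CHAC1, -0.10 to 0.010 for SESN2 and -0.13 to 0.18 for PPP1R15A, in 4SU from -0.065 to 0.15 for DDIT3, -0.061 to 0.15 for ASNS and -0.0082 to 0.035 for PSAT1, and in CEP+4SU from -0.015 to 0.023 for ATF4 and -0.18 to 0.055 for DDIT3. Low counts, 39 to 152 per library, limit CHAC1, ASNS and DDIT3. Whether shared exons lowered those of ASNS and DDIT3 was not tested.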
